A study of Mus musculus with 18 samples.

Results

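The genes described here encode the heat shock proteins and their DnaJ and BAG co-chaperones, followed in the mouse gastrocnemius, a fast muscle of the calf. They were selected by symbol, by a rule set when earlier results of these data were known. The rule took the Hspa, Hspb, Hspd and Hsph families, Hsp90, Dnaja, Dnajb and Dnajc, Bag1 to Bag6, and Cryab, Hsf2, Stip1 and Stub1. A symbol had to stand alone on its probeset, the group of oligonucleotides that measures a transcript, and the probeset with the highest mean was kept for each gene. That gave 67 genes of the 13255 symbols that stood alone on a probeset. Dnaja1 and Hsp90aa1 had a second probeset, and 4 further probesets that carried a chaperone symbol together with another symbol were left out. The animals were male C57BL/6 mice without treatment, aged 2, 11 or 25 months. Each age had 6 samples, labelled as biological replicates, and each sample was 1 Affymetrix whole-transcript array of RNA from snap-frozen muscle of both hind legs, so the number of arrays limits the precision. Values are log2 probeset signals, which can be set against each other between ages for the same probeset but not between genes.

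Chaperones bind unfolded or partly folded proteins and keep them from aggregating. HSP70 proteins do so in cycles of ATP hydrolysis, which DnaJ proteins start through their J domain and which nucleotide exchange factors, among them BAG and HSP110 proteins, bring to a close; HSP90 proteins act later on a smaller set of clients, and small heat shock proteins hold clients without using ATP. Many cytosolic members are induced by heat through the heat shock factor HSF1, which binds repeated nGAAn units in promoters, whereas chaperones of the endoplasmic reticulum (ER) are induced by the unfolded protein response through other elements. In striated muscle, small heat shock proteins and BAG3 are known for guarding the Z-disc and the filaments during contraction.

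Promoter sequence is shown for 5 genes that carried matches to these 2 kinds of element and that the values below return to: the ER chaperones Hspa5 and Hsp90b1, and Dnajb6, Hspd1 and Hsph1 of the heat shock type. Each line holds the 250 bases before the gene start, 5′ to 3′ on the strand of the gene, from RefSeq on GRCm38.p6. Capitals mark the fixed letters of the match: CCAAT and CCACG of the ER stress response element (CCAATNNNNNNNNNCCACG) in Hspa5 and Hsp90b1, either way round, and GAA and TTC units of a heat shock element in the other genes.
Hspa5 (chr2:34771840-34772089, plus strand): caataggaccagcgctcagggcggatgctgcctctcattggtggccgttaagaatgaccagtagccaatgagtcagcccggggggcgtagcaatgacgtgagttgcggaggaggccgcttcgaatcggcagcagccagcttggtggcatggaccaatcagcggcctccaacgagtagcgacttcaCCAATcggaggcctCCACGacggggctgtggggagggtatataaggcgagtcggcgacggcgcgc
Hsp90b1 (chr10:86705445-86705694, minus strand): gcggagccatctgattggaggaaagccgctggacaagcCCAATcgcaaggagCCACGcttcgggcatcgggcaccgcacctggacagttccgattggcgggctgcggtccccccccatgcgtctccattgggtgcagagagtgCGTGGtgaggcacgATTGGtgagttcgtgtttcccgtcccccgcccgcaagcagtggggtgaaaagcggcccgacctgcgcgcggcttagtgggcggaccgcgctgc
Dnajb6 (chr5:29735648-29735897, plus strand): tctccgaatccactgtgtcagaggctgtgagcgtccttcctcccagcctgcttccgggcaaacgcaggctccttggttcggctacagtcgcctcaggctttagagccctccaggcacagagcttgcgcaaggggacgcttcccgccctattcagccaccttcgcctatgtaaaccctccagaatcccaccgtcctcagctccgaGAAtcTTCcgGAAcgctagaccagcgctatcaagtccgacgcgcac
Hspd1 (chr1:55087933-55088182, minus strand): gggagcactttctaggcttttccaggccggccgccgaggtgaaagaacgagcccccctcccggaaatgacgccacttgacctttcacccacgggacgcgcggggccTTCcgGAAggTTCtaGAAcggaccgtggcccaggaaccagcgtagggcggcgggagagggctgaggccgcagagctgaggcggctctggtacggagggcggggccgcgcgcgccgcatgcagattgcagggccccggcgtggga
Hsph1 (chr5:149636316-149636565, minus strand): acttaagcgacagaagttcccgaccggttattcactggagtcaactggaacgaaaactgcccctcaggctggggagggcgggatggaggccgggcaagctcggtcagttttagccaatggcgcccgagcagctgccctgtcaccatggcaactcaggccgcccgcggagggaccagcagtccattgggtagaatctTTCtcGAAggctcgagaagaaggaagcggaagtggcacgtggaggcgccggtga

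RefSeq held such a window for 52 of the 67 genes. The ER stress response element, searched on both strands, was found in Hspa5, starting 65 bases before the gene start, and in Hsp90b1, starting 212 and 107 bases before it, and in no other of the 52; of 27025 genes with a window, 0.13% held it. A heat shock element of 3 units (GAANNTTCNNGAA or TTCNNGAANNTTC) was found in Dnajb6 and Hspd1, against 0.514% of all genes with a window. The shorter form of 2 units (GAANNTTC or TTCNNGAA), which each 3-unit match contains, was found in 13 of the 52 genes (25.0%) and in 14.549% of all genes. Among the 13 were Hsph1, 54 bases before its start, Hspa1a, 104 bases before, and Hspb1, 117 and 97 bases before. A match gives these letters only, and the absence of a match says nothing about the factor.

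All arrays showed fast-fibre muscle: the mean of 6 fast-fibre markers stayed between 13.42 and 13.62 on every array. Of these 6 markers, 2 were lower at 11 and 1 at 25 against 2 months (limma adjusted p below 0.05), and none higher. Array medians lay between 6.61 and 6.66. The signal range of an array, the interquartile range of its log2 values, was 2.03 to 2.35 at 2 months, 2.25 to 2.45 at 11 months and 2.13 to 2.37 at 25 months. On replicate 4 of 11 months the mean of 5 keratinocyte markers was 7.60 and on replicate 5 of 11 months 6.61, against at most 6.26 on the other arrays. Neither dates nor batches of the arrays are labelled. The marker list that differed most was that of fibroblasts and fibro-adipogenic progenitors, whose mean over 8 genes ran from 8.93 to 9.39 at 2 months, from 8.68 to 8.92 at 11 months and from 8.23 to 8.56 at 25 months, with 5 of the 8 called lower at 25 against 2 months and 3 lower and 1 higher at 11 against 2 months. Of 7 adipocyte markers, 3 were called higher at 11 against 2 months and 1 lower at 25 against 2 months. The part of these cells in the results below was not tested. In whole muscle, fewer cells of a type and less RNA per cell cannot be told apart. The 3 comparisons share arrays, since each age enters 2 of them.

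The 67 genes moved in both directions with age, mostly by small amounts, and the called differences all lay between 2 months and the later ages. At 11 against 2 months 12 genes were higher and 5 lower by limma at an adjusted p below 0.05, which is what "called" means below. Over all 15300 probesets 19.1% were called in that comparison, 11.9% higher and 7.18% lower; of the chaperone genes, 17.9% were called higher and 7.46% lower. At 25 against 2 months 13 genes were called higher (19.4%) and 5 lower (7.46%), beside 17.4% of all probesets, 10.5% higher and 6.95% lower. As 40 of the 67 genes were among the 3825 probesets of highest mean, these are given as a second background. Of them 31.3% were called at 11 against 2 months, 26.0% higher and 5.31% lower, and likewise 31.3% at 25 against 2 months, 23.1% higher and 8.29% lower. Read against it, the share of the 67 chaperone genes called higher was not larger than that of the strong probesets. Not all of the 67 are that strong, and a background matched for signal was not computed. The median change of the 67 genes was 0.03 at 11 against 2 months and 0.06 at 25 against 2 months (log2), beside 0.09 and 0.07 for the 3825 strong probesets and -0.02 and -0.01 for all probesets. At an unadjusted p below 0.05 there were 25 genes at 11 against 2 months (37.3%, beside 35.8% of all probesets) and 31 at 25 against 2 months (46.3%, beside 30.0%). Among the 3825 strong probesets these shares were 48.3% and 45.9%, so neither share of the chaperone genes stood clearly above them. Over the 3 ages together 20 of the 67 genes changed by limma's moderated F test, beside 19.2% of all probesets.

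The split at 11 months depended on scaling and on single arrays. After further quantile normalization 6 genes were higher and 11 lower at 11 against 2 months, and 11 higher and 9 lower at 25 against 2 months; with the signal range of each array as covariate (the range covariate), only 1 was higher and 3 lower at 11 months, but 15 higher and 9 lower at 25 months. Without replicate 5 of 11 months, 7 were higher and 3 lower at 11 against 2 months, and without replicate 4 of 2 months 3 were lower.

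**Figure D1:**
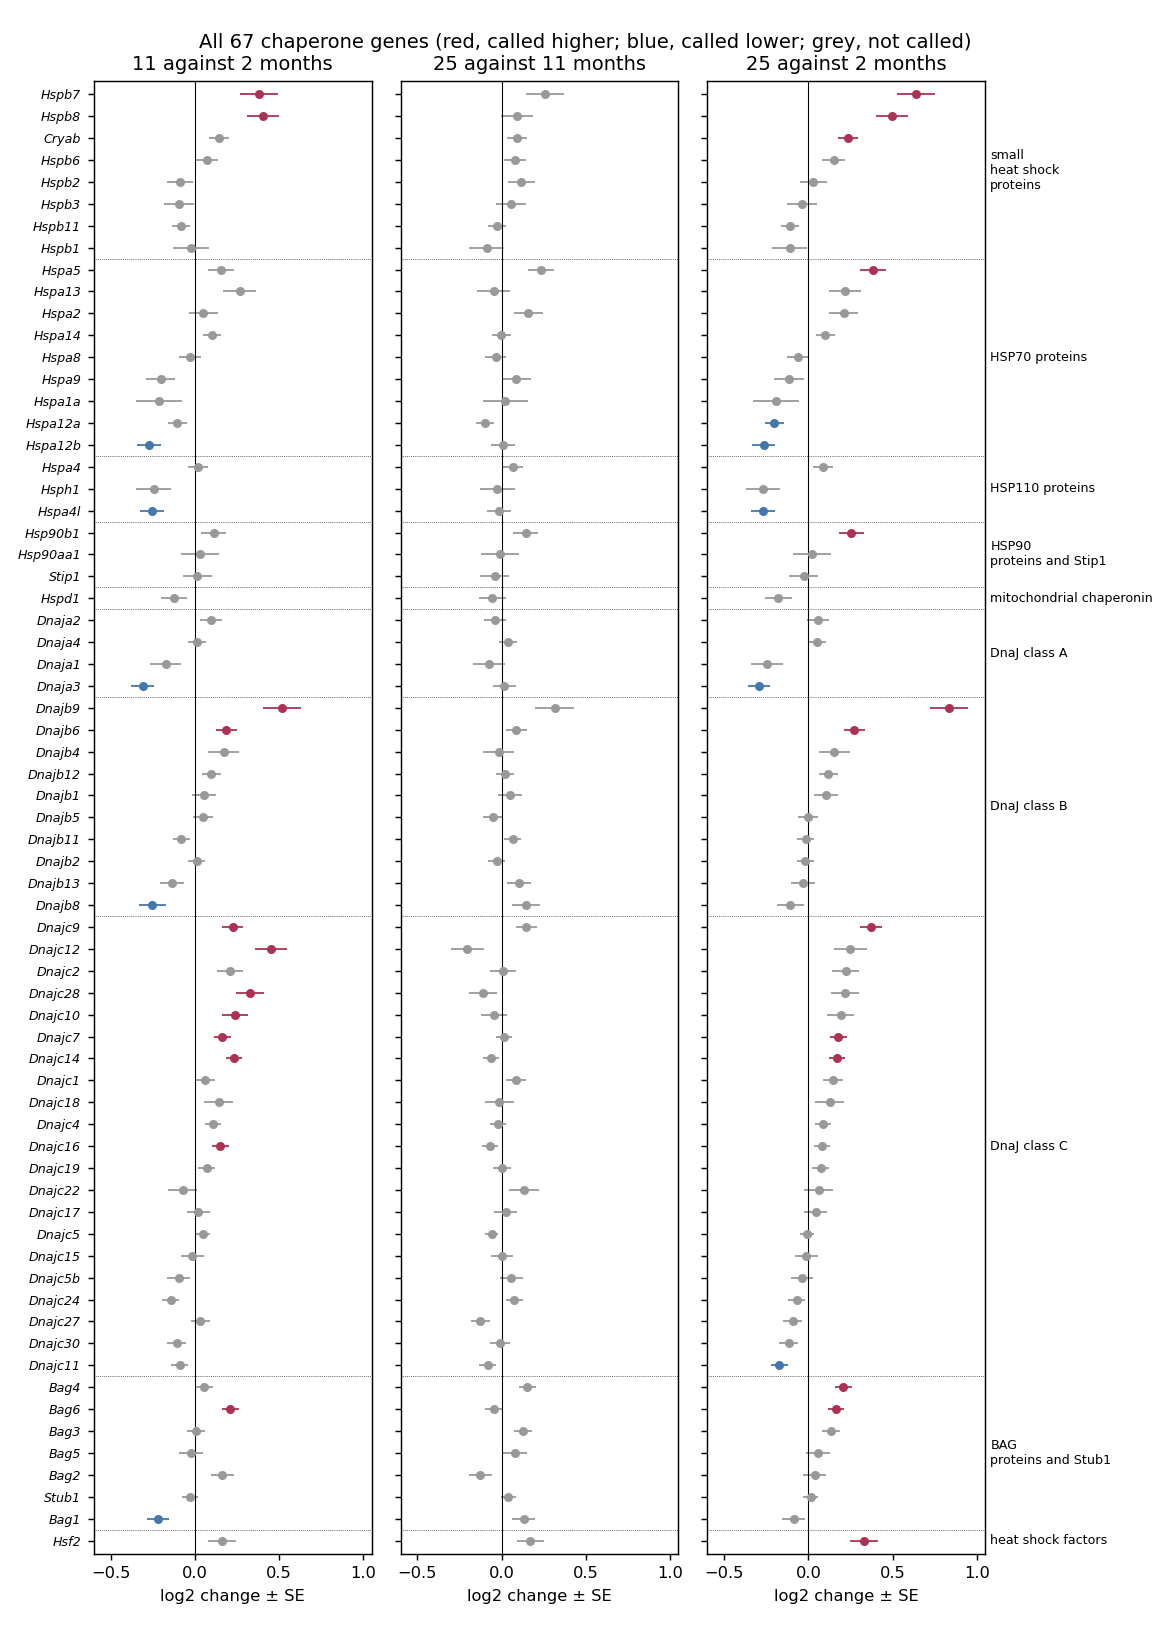
Log2 change with its SE for each of the 67 chaperone genes in the 3 comparisons of ages, ordered by role. Red points are called higher, blue points called lower and grey points not called; the middle panel, 25 against 11 months, holds no called gene, and Dnajb9 has the change farthest from 0 at 25 against 2 months.

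Of the ER chaperones, Dnajb9, Hspa5 and Hsp90b1 rose at 25 against 2 months, and only Dnajb9 of these was also called at 11 months. Dnajb9, the ER-resident J protein known as ERdj4 that works with the ER HSP70 BiP, ran from 7.36 to 8.14 with a median of 7.90 at 2 months. It ran from 8.07 to 8.50 with a median of 8.37 at 11 months, and from 8.40 to 8.80 with a median of 8.65 at 25 months. Every array of 25 months lay above every array of 2 months, and 5 of 6 arrays of 11 months did. The change was 0.52 ± 0.11 at 11 against 2 months (SE; 1.43-fold, adjusted p = 0.00388) and 0.83 ± 0.11 at 25 against 2 months (1.78-fold, adjusted p = 3.49e-05). At 25 against 11 months it was 0.31 ± 0.11 and not called (adjusted p = 0.356). The call at 11 months was lost with the range covariate (0.28, adjusted p = 0.114).

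Hspa5, which encodes BiP, ran from 9.70 to 10.16 with a median of 10.08 at 2 months, from 10.04 to 10.35 with a median of 10.12 at 11 months, and from 10.27 to 10.51 with a median of 10.38 at 25 months. The arrays of 25 months again lay above all arrays of 2 months, whereas those of 11 months overlapped both. It was 0.39 ± 0.08 higher at 25 against 2 months (1.31-fold, adjusted p = 0.00166), while 0.15 ± 0.08 at 11 against 2 months (adjusted p = 0.16) and 0.23 ± 0.08 at 25 against 11 months (adjusted p = 0.294) were not called. Hsp90b1, which encodes the ER HSP90 protein GRP94, ran from 9.21 to 9.65 at 2 months with a median of 9.54, and from 9.58 to 9.85 at 25 months with a median of 9.72. On 5 of 6 arrays of 25 months it was above all of 2 months. Its change was 0.26 ± 0.07 (1.19-fold, adjusted p = 0.0198), a call that was lost without replicate 2 or 4 of 2 months or replicate 1 of 25 months and with the Tukey test (adjusted p up to 0.0717). Hspa5 and Hsp90b1 are the genes shown above with the ER stress response element; the window of Dnajb9 held neither element.

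Other ER members of the families did not all follow. Dnajc10, the ER reductase ERdj5, was 0.24 ± 0.08 higher at 11 against 2 months (adjusted p = 0.0392), a call lost by leaving out any of 6 arrays in turn and after quantile normalization, and 0.19 ± 0.08 at 25 against 2 months (adjusted p = 0.1). Dnajb11, the J protein ERdj3, had changes of -0.08 and -0.01 at 11 and 25 against 2 months, neither called. Hspa13, an HSP70 protein of microsomes, had changes of 0.27 and 0.22, neither called (adjusted p = 0.0591 and 0.133). Dnajc1, an ER membrane J protein, had 0.06 and 0.15, neither called. A probeset that carries both Dnajc3 and Ccdc58, and is therefore not counted, was 0.22 ± 0.07 higher in both comparisons (adjusted p = 0.0322 and 0.0314).

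Genes outside the families that fold or sort proteins in the ER gave a mixed picture. Of 21 measured genes of ER folding and the unfolded protein response, 5 were called higher (23.8%, near the 23.1% of the 3825 strong probesets and above the 10.5% of all) and 0 lower at 25 against 2 months. They were Xbp1, the transcription factor of the IRE1 arm, by 0.41 ± 0.05 (adjusted p = 1.55e-05), P4hb, a protein disulfide isomerase, by 0.41 ± 0.07 (adjusted p = 0.000287), the lectin chaperone gene Canx by 0.32, and Derl1 and Herpud1 of ER-associated degradation by 0.38 and 0.31. Xbp1 ran from 8.43 to 8.72 at 2 months, from 8.68 to 8.83 at 11 months and from 8.89 to 9.11 at 25 months, so that the arrays of 25 months lay above those of both younger ages. Its change at 25 against 11 months, 0.22 ± 0.05, was not called (adjusted p = 0.1). The other 16 were not called, among them Pdia4 at -0.17 ± 0.08, Eif2ak3, which encodes the stress kinase PERK, at -0.14 ± 0.05 (adjusted p = 0.0517), and Ddit3, which encodes CHOP, at -0.03 ± 0.07. After quantile normalization and with the range covariate, 2 of the 21 were called lower beside the 5 higher. At 11 against 2 months 5 were called higher (23.8%, beside 26.0% of the 3825 strong and 11.9% of all probesets) and 0 lower. That count became 2 higher and 1 lower after quantile normalization. Of the 5, the calls of Herpud1, Atf4 and Derl1 were lost by leaving out any of 12, 10 and 8 arrays.

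**Figure D2:**
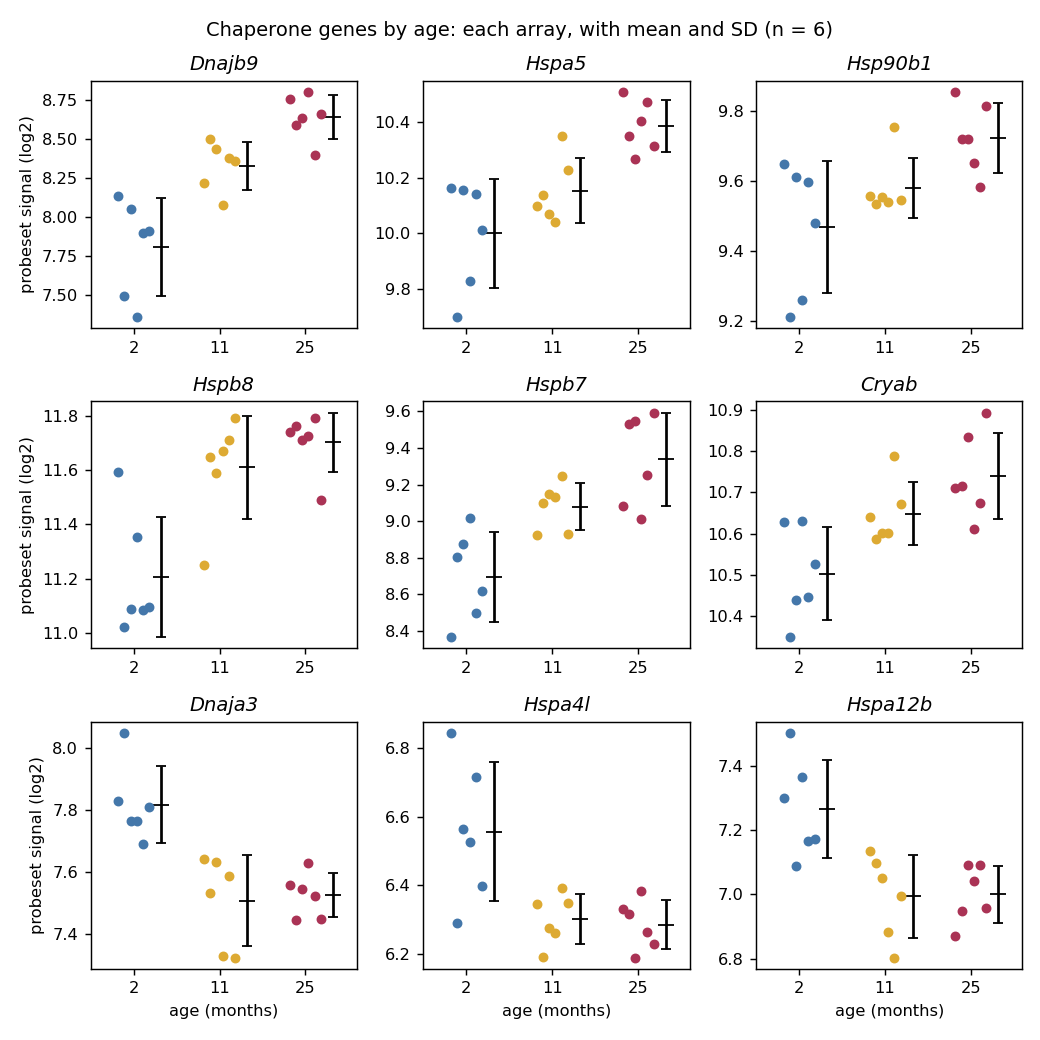
Log2 probeset signal of 9 chaperone genes on each array at 2, 11 and 25 months, with the mean and SD of the 6 arrays of an age beside the points; each panel has its own scale. The top row holds 3 ER chaperones and the middle row 3 small heat shock proteins, which lie higher at 25 than at 2 months; the bottom row holds 3 genes that lie lower at both later ages, with all 11- and 25-month arrays of Dnaja3 below all 2-month arrays.

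Of the 8 genes grouped as small heat shock proteins, Hspb11 among them, 3 rose at 25 against 2 months and none fell. These 3 were 37.5% of the group, beside 23.1% of the 3825 strong and 10.5% of all probesets. Hspb8, which forms a complex with BAG3 that sends damaged filamin to autophagy, ran from 11.02 to 11.59 with a median of 11.09 at 2 months, from 11.25 to 11.79 with a median of 11.66 at 11 months, and from 11.49 to 11.79 with a median of 11.73 at 25 months. All but 1 array of 25 months and 4 of 6 arrays of 11 months lay above every 2-month array. The change was 0.40 ± 0.10 at 11 against 2 months (1.32-fold, adjusted p = 0.00643) and 0.50 ± 0.10 at 25 against 2 months (1.41-fold, adjusted p = 0.00111). The first of these calls was lost with the range covariate.

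Hspb7, a small heat shock protein of heart and skeletal muscle, ran from 8.37 to 9.02 with a median of 8.71 at 2 months, from 8.92 to 9.25 with a median of 9.12 at 11 months, and from 9.01 to 9.59 with a median of 9.39 at 25 months. Its 25-month arrays were widely spread (SD 0.26 beside a median SD of 0.0993 over all probesets), with 3 arrays of 9.53 or more and 3 of 9.25 or less. The change was 0.38 ± 0.11 at 11 against 2 months (1.30-fold, adjusted p = 0.0234) and 0.64 ± 0.11 at 25 against 2 months (1.56-fold, adjusted p = 0.000536). The smaller of these calls was lost without replicate 5 of 2 months or of 11 months, after quantile normalization and with the range covariate. Cryab, which encodes alpha-B-crystallin, a chaperone of desmin and titin, ran from 10.35 to 10.63 at 2 months, from 10.59 to 10.79 at 11 months and from 10.61 to 10.89 at 25 months. It was 0.24 ± 0.06 higher at 25 against 2 months (1.18-fold, adjusted p = 0.00788), above all 2-month arrays on 5 of 6, and 0.15 ± 0.06 at 11 against 2 months (adjusted p = 0.0853). Hspb2, its neighbour on chromosome 9, was at -0.09 and 0.03 in these comparisons and not called.

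The other small heat shock proteins were not called at either age. Hspb6, which binds contractile and signalling proteins in muscle, was at 0.15 ± 0.07 at 25 against 2 months (adjusted p = 0.133). Hspb1, the heat-inducible HSP27 gene, was at -0.11 ± 0.10. Hspb3, a muscle-restricted member, was at -0.04 ± 0.09, and Hspb11, an intraflagellar transport protein, at -0.11 ± 0.05.

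Markers of slow fibres were also higher at 25 months. Of 8 measured slow-fibre markers, 5 were called higher at 25 against 2 months, among them Tnni1 by 0.90 ± 0.21 and Myl2 by 0.82 ± 0.21, and none at 11 against 2 months. The mean of the 8 markers ran from 9.09 to 10.26 at 2 months, from 9.55 to 10.14 at 11 months and from 9.66 to 10.58 at 25 months. Within ages the small heat shock genes did not follow these markers alike. At 25 months Hspb7 put the arrays in the same order as the marker mean, from replicate 4 (9.01, markers 9.66) to replicate 6 (9.59, markers 10.58). At 2 months Hspb7 and the marker mean were both lowest on replicate 1, but Hspb7 was highest on replicate 4 and the markers on replicate 3. Cryab was likewise lowest of 25 months on replicate 4 (10.61) and highest on replicate 6 (10.89), but its lowest 2-month array was replicate 2. Hspb8 was highest of 2 months on replicate 1 (11.59), where the markers were lowest, and lowest of 25 months on replicate 6 (11.49), where they were highest. At 11 months it was highest on replicate 6 (11.79), where the markers were lowest (9.55). It did not run opposite to the markers throughout. Both were high on replicate 4 of 2 months (11.36, markers 9.98) and on replicate 5 of 11 months (11.71, markers 10.14). The part of fibre type in these changes was not tested.

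The BAG proteins, nucleotide exchange factors that link HSP70 to different fates, went separate ways. Bag4, which also binds death receptors, ran from 6.41 to 6.68 at 2 months and from 6.68 to 6.90 at 25 months, without overlap. Its change was 0.21 ± 0.05 (1.16-fold, adjusted p = 0.00798), beside 0.05 ± 0.05 at 11 against 2 months. Bag6, of the quality control of membrane proteins, was 0.21 ± 0.05 higher at 11 (adjusted p = 0.00551) and 0.16 ± 0.05 higher at 25 against 2 months (adjusted p = 0.0238), but neither call held after quantile normalization, and the second was also lost by leaving out any of 3 single arrays. Bag1 fell by 0.22 ± 0.07 at 11 against 2 months (adjusted p = 0.0283), which 4 of the single arrays left out in turn ended, and was at -0.09 ± 0.07 at 25 against 2 months. Bag3, the partner of Hspb8, was not called: it ran from 9.55 to 9.84 at 2 months, from 9.66 to 9.77 at 11 months and from 9.69 to 9.97 at 25 months, with a change of 0.13 ± 0.05 at 25 against 2 months (adjusted p = 0.0978). Leaving out replicate 1 of 25 months, weighting the arrays or leaving out the 3 arrays of narrowest signal range brought it past the threshold (lowest adjusted p = 0.0302). Bag2, Bag5 and the ubiquitin ligase gene Stub1 were not called. Of 3 measured partners of BAG3 in autophagy, Sqstm1, which encodes the receptor p62, was higher at 11 and 25 against 2 months by 0.32 and 0.33, and Map1lc3b, an LC3 gene, by 0.18 and 0.33. The Map1lc3b call at 11 months was lost after quantile normalization, with the range covariate and by leaving out any of 7 arrays (adjusted p up to 0.342).

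The 35 DnaJ genes fall into classes A, B and C. Of 21 class C genes, 7 were called higher (33.3%, beside 26.0% of the 3825 strong and 11.9% of all probesets) and 0 lower at 11 against 2 months, and 3 higher (14.3%, beside 23.1% and 10.5%) and 1 lower at 25 against 2 months; after quantile normalization these counts were 4 higher and 2 lower, and 2 higher and 2 lower. Dnajc9, a co-chaperone of histones, ran from 7.15 to 7.38 at 2 months, from 7.31 to 7.56 at 11 months and from 7.49 to 7.85 at 25 months. The 25-month arrays did not overlap those of 2 months. The change was 0.23 ± 0.06 at 11 against 2 months (1.17-fold, adjusted p = 0.0178) and 0.37 ± 0.06 at 25 against 2 months (1.29-fold, adjusted p = 0.000381). The call at 11 months was lost with the range covariate (0.12, adjusted p = 0.297) and without the 3 arrays of narrowest signal range.

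Dnajc12, a co-chaperone of aromatic amino acid hydroxylases, stood highest at 11 months. It ran from 7.65 to 8.25 at 2 months, from 8.33 to 8.61 at 11 months and from 8.05 to 8.60 at 25 months, so that only the 11-month arrays lay clear of those of 2 months. The change was 0.45 ± 0.10 at 11 against 2 months (1.37-fold, adjusted p = 0.00358), 0.25 ± 0.10 at 25 against 2 months (adjusted p = 0.0857) and -0.20 ± 0.10 at 25 against 11 months (adjusted p = 0.479). The call was lost with the range covariate.

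Dnajc14, an ER membrane J protein that acts in receptor transport, was 0.23 ± 0.05 higher at 11 against 2 months (adjusted p = 0.00295), a call that no alternative ended, and 0.17 ± 0.05 higher at 25 against 2 months (adjusted p = 0.0197). Its 25-month arrays lay in a narrow band from 8.03 to 8.08, above the 7.80 to 8.01 of 2 months. Dnajc28 was 0.33 ± 0.08 higher at 11 against 2 months (adjusted p = 0.00894) and at 0.22 ± 0.08 at 25 against 2 months (adjusted p = 0.0721); its call was lost with the range covariate (adjusted p = 0.227) and without the same 3 arrays. Dnajc7, which binds both HSP70 and HSP90, was higher by 0.16 ± 0.05 and 0.18 ± 0.05, both called; Dnajc16 was 0.15 ± 0.05 higher at 11 against 2 months (adjusted p = 0.0371) and at 0.08 ± 0.05 at 25 against 2 months (adjusted p = 0.282). The calls of both genes at 11 months were lost after quantile normalization, with the range covariate and by leaving out any of 5 arrays for Dnajc7 or 7 for Dnajc16. Dnajc19 of the mitochondrial import motor was at 0.07 in both comparisons and not called, and the other class C genes not named with a call had changes between -0.14 and 0.22.

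In class B, beside Dnajb9, Dnajb6 rose. Dnajb6 suppresses aggregation at the Z-disc, and changes in the human gene cause a limb-girdle muscular dystrophy. It ran from 8.37 to 8.67 at 2 months, from 8.55 to 8.76 at 11 months and from 8.52 to 8.88 at 25 months, above all 2-month arrays on 5 of 6 arrays of 25 months. The change was 0.27 ± 0.06 at 25 against 2 months (1.21-fold, adjusted p = 0.00397) and 0.19 ± 0.06 at 11 against 2 months (adjusted p = 0.0411), a call that leaving out any of 8 arrays ended. Dnajb8, a suppressor of aggregation best known from testis, was 0.25 ± 0.08 lower at 11 against 2 months (adjusted p = 0.0378) and at -0.11 ± 0.08 at 25 against 2 months; leaving out any of 8 arrays ended that call too. Dnajb4, a J protein of striated muscle, was at 0.17 ± 0.09 and 0.15 ± 0.09, and Dnajb2, Dnajb5, Dnajb12 and Dnajb13 were not called.

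Beside Bag1 and Dnajb8, the genes that fell were a pair of mitochondrial proteins, an HSP110 gene and a pair of atypical HSP70 genes. Dnaja3, the mitochondrial J protein Tid1, which also binds the receptor kinase MuSK at the neuromuscular junction, ran from 7.69 to 8.05 with a median of 7.79 at 2 months, from 7.32 to 7.64 with a median of 7.56 at 11 months, and from 7.44 to 7.63 with a median of 7.53 at 25 months. Neither later age overlapped 2 months. It fell by 0.31 ± 0.07 at 11 against 2 months (1.24-fold lower, adjusted p = 0.00361) and by 0.29 ± 0.07 at 25 against 2 months (1.22-fold lower, adjusted p = 0.0042), with 0.02 ± 0.07 between 25 and 11 months. Both calls held under every alternative that was run. Dnajc11, a protein of the mitochondrial membranes, fell by 0.17 ± 0.05 at 25 against 2 months (adjusted p = 0.0197), from 7.96 to 8.20 down to 7.72 to 7.91, without overlap; without replicate 1 of 25 months it was not called.

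Hspa4l, an HSP110 protein that exchanges nucleotides on HSP70, ran from 6.29 to 6.84 at 2 months, from 6.19 to 6.39 at 11 months and from 6.19 to 6.38 at 25 months. The lower 2-month arrays overlapped the later ages. It fell by 0.25 ± 0.07 at 11 (adjusted p = 0.0196) and by 0.27 ± 0.07 at 25 against 2 months (adjusted p = 0.0132). Its relative Hspa4 was at 0.02 and 0.09 and not called.

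The atypical HSP70 gene Hspa12b, known from endothelium, ran from 7.09 to 7.50 at 2 months, from 6.80 to 7.14 at 11 months and from 6.87 to 7.09 at 25 months. It fell by 0.27 ± 0.07 in both comparisons (adjusted p = 0.0112 and 0.0122), but not at 11 months with the range covariate (adjusted p = 0.184). Hspa12a, its paralogue, fell by 0.20 ± 0.05 at 25 against 2 months (adjusted p = 0.0134), below all 2-month arrays on 5 of 6. The mean of 6 endothelial markers ran from 8.13 to 8.37 at 2 months, from 8.13 to 8.43 at 11 months and from 8.07 to 8.27 at 25 months, with Pecam1 (-0.15) and Tek (-0.32) called lower at 25 against 2 months and Emcn (0.23) called higher at 11; the part of endothelium was not tested. In mitochondria, the chaperonin gene Hspd1, which encodes HSP60, was at -0.12 ± 0.08 and -0.18 ± 0.08 and not called, but was called lower in both comparisons after quantile normalization and with the range covariate. Hspa9, the mitochondrial HSP70 mortalin, was at -0.20 ± 0.09 and -0.12 ± 0.09 and not called.

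The classical heat-inducible genes were not called at either age, and several of them spread widely among the young mice. All probesets together were also wider there, with a median SD of 0.13 at 2 months and 0.10 at both later ages. Hspa1a, the inducible HSP70, ran from 5.71 to 6.57 with a median of 6.34 at 2 months, from 5.67 to 6.27 with a median of 6.02 at 11 months, and from 5.80 to 6.36 with a median of 6.04 at 25 months. All ages overlapped, and the change was -0.21 ± 0.13 and -0.19 ± 0.13 (adjusted p = 0.255 and 0.367). A probeset that carries both Hspa1l and Hspa1a, and is therefore not counted, was 0.24 ± 0.08 higher at 25 against 2 months (adjusted p = 0.0317), so the 2 probesets that bear the name disagree. Hspa1a and Hspa1b are near-identical copies, and signal from either cannot be told apart here. Dnajb1, the inducible HSP40, was at 0.05 ± 0.07 and 0.10 ± 0.07, with SDs of 0.08 at 2 months and 0.17 at 25 months, so it was narrowest among the young arrays. Hspb1 had similar SDs of 0.22, 0.17 and 0.20 at the 3 ages. Hspa8, the constitutive HSP70, was at -0.03 ± 0.06 and -0.06 ± 0.06.

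Hsp90aa1, the inducible cytosolic HSP90, ran from 7.48 to 8.48 at 2 months, from 7.93 to 8.32 at 11 months and from 7.96 to 8.18 at 25 months. The means were 8.05, 8.08 and 8.08, with SDs of 0.34, 0.13 and 0.08 (n = 6 each). Only the spread of the young arrays stood out: its SD at 2 months lay at percentile 98.1 of all probesets. Stip1, the adaptor between HSP70 and HSP90, ran from 9.07 to 9.86 at 2 months, from 9.40 to 9.62 at 11 months and from 9.32 to 9.54 at 25 months, with changes of 0.01 ± 0.09 and -0.03 ± 0.09. Hsph1, the inducible HSP110, ran from 8.66 to 9.60 with a median of 9.19 at 2 months, from 8.81 to 9.08 with a median of 8.93 at 11 months, and from 8.73 to 8.99 with a median of 8.93 at 25 months. In all 3 genes the highest 2-month array was replicate 1 and the lowest replicate 2, and the second Hsp90aa1 probeset had 8.21 and 7.15 on these arrays.

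For Hsph1 the call depended on these arrays and on the scaling and fit. With all arrays its change was -0.24 ± 0.10 at 11 and -0.27 ± 0.10 at 25 against 2 months (adjusted p = 0.0939 and 0.0758), not called. Without replicate 2 of 2 months it was -0.35 ± 0.08 and -0.37 ± 0.08, both called (adjusted p = 0.00618 and 0.0029). Without replicate 1 it was -0.16 ± 0.09 and -0.18 ± 0.09, neither called (adjusted p = 0.18 and 0.155). With all arrays kept, Hsph1 was called lower in both comparisons after quantile normalization (adjusted p = 0.0198 and 0.0169). At 25 against 2 months it was also called lower with array weights (adjusted p = 0.0408) and with the range covariate (adjusted p = 0.0308). Dnaja1, another inducible J protein, had changes of -0.17 ± 0.09 and -0.25 ± 0.09 (adjusted p = 0.185 and 0.0748), and its second probeset -0.20 and -0.19, none called. Over all 67 genes, replicate 1 was the highest 2-month array for 21 (31.34%, beside 19.84% of all probesets), and replicate 5 the highest 11-month array for 26 (38.81%, beside 22.65%).

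**Figure D3:**
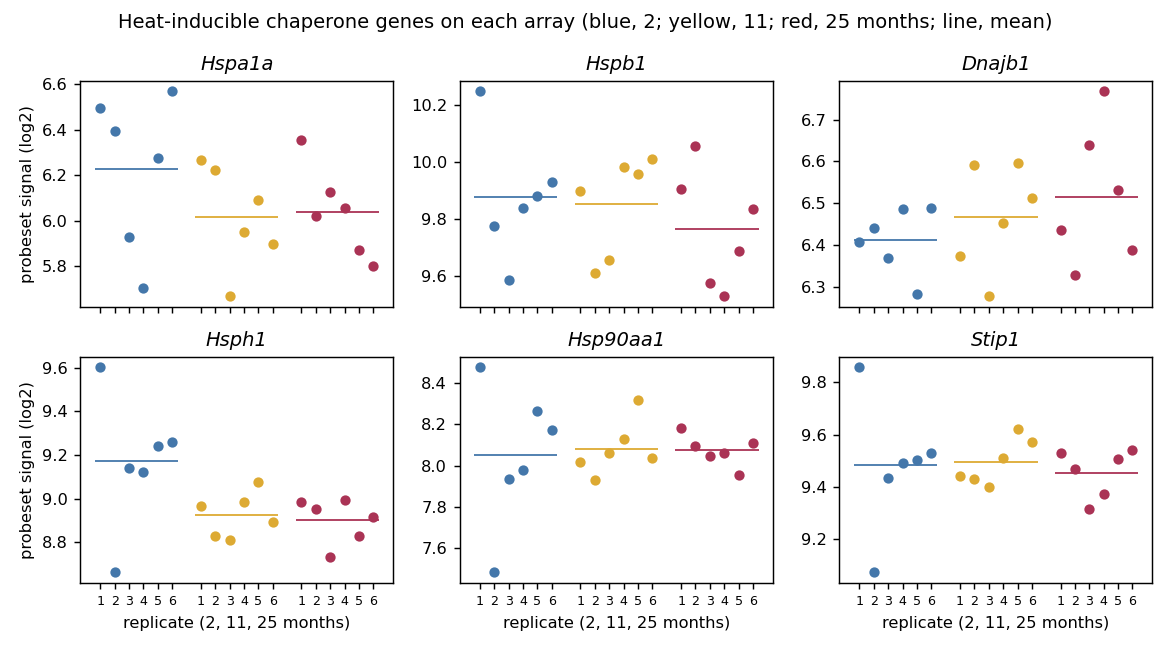
Log2 probeset signal of 6 heat-inducible chaperone genes on each of the 18 arrays, by replicate number within each age (blue 2, yellow 11 and red 25 months), with a line at the mean of the age. The labels give no link between the same replicate number at different ages. In Hsph1, Hsp90aa1 and Stip1 replicate 1 is the highest and replicate 2 the lowest of the 2-month arrays.

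Of the heat shock factors only Hsf2, which can bind heat shock elements together with HSF1 and acts in development, had a probeset of its own. It ran from 7.41 to 7.90 with a median of 7.71 at 2 months, from 7.73 to 8.08 with a median of 7.85 at 11 months, and from 7.81 to 8.16 with a median of 8.07 at 25 months. On 5 of 6 arrays of 25 months it lay above all of 2 months. It was 0.33 ± 0.08 higher at 25 against 2 months (1.26-fold, adjusted p = 0.00705), under every alternative that was run, and 0.16 ± 0.08 at 11 against 2 months (adjusted p = 0.157).

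Partners of HSP90 outside the families split by direction. Of 17 measured co-chaperones, 3 were called higher (17.6%) and 5 lower (29.4%) at 25 against 2 months. In that comparison 23.1% of the 3825 strong probesets were higher and 8.29% lower, and of all probesets 10.5% and 6.95%. At 11 against 2 months 1 co-chaperone was called higher (5.88%) and 5 lower (29.4%). Beside these stood 26.0% and 5.31% of the strong and 11.9% and 7.18% of all probesets. Sugt1, an adaptor of HSP90 in kinetochore assembly, ran from 8.38 to 8.99 at 2 months and from 8.95 to 9.42 at 25 months and rose by 0.52 ± 0.09 (adjusted p = 0.000445). Fkbp5, an immunophilin of steroid receptor complexes that glucocorticoids induce, ran from 8.21 to 9.27 at 2 months, from 8.11 to 8.41 at 11 months and from 7.99 to 8.21 at 25 months. It fell by 0.57 ± 0.12 at 25 (adjusted p = 0.00208) and by 0.44 ± 0.12 at 11 against 2 months (adjusted p = 0.0142). Fkbp4, its paralogue, fell by 0.25 ± 0.05 at 25 against 2 months, below all 2-month arrays. Ahsa1, the activator of the HSP90 ATPase, fell by 0.23 ± 0.06 and 0.25 ± 0.06 at 11 and 25 against 2 months, both in every alternative fit, and Ahsa2 and Cdc37l1 were called lower at both ages. The Ahsa2 call at 25 months was lost by leaving out any of 4 arrays, and the Cdc37l1 calls by leaving out any of 8 arrays at 11 months or any of 6 at 25 months. The calls of Fkbp5 and Sugt1 at 11 months were lost with the range covariate. At 25 against 2 months St13, which encodes the HSP70-interacting protein Hip, and Tomm34 rose by 0.23 and 0.19, the first not by the Tukey test and the second not after quantile normalization.

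**Figure D4:**
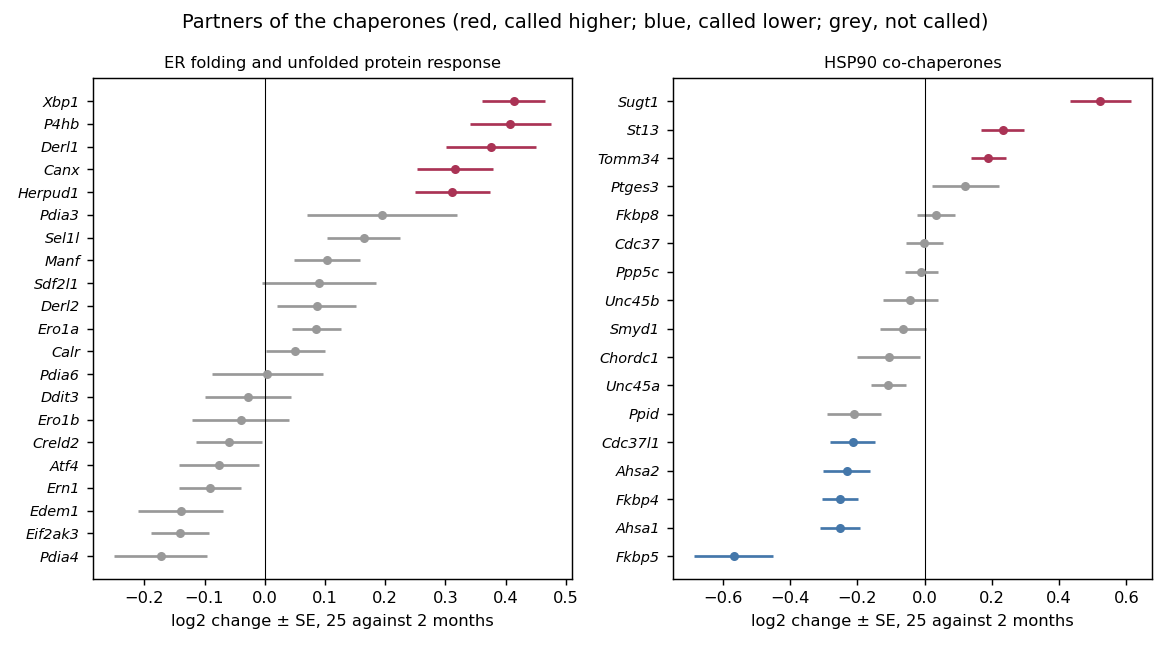
Log2 change with its SE at 25 against 2 months for 21 genes of ER folding and the unfolded protein response (left) and 17 HSP90 co-chaperones (right). Red points are called higher, blue points called lower and grey points not called: 5 ER genes are higher and none lower, and of the co-chaperones 3 are higher and 5 lower.

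Other partners changed less. Of 13 genes of the TRiC chaperonin and prefoldin, which fold actin and tubulin, only Cct2 was called, higher by 0.21 ± 0.07 at 11 against 2 months (adjusted p = 0.0465), and not after median centring or quantile normalization. Of 9 mitochondrial chaperones and proteases, Trap1, the mitochondrial HSP90, was higher by 0.34 ± 0.09 at 11 against 2 months with Clpb and Hscb, none of them with the range covariate, and Afg3l2 fell by 0.14 ± 0.05 at 25 against 2 months, a call that leaving out any of 7 arrays ended (adjusted p up to 0.169). In a list of 6 exchange and binding factors of HSP70 and of heat shock factors, only Hsbp1 was called. Hsbp1, which binds heat shock factors, was higher by 0.27 ± 0.07 at 25 against 2 months, though not after quantile normalization. Both measured cold-inducible RNA-binding proteins rose. Rbm3, with a larger change than any of the 67 chaperone genes, ran from 10.10 to 10.87 at 2 months, from 11.13 to 11.59 at 11 months and from 11.26 to 11.56 at 25 months. It was 1.01 ± 0.11 higher at 25 against 2 months (adjusted p = 1.74e-06) and about as much higher at 11 (adjusted p = 5.15e-06), and Cirbp was higher by 0.55 ± 0.07 and 0.54 ± 0.07 at 11 and 25 months, with no overlap with the 2-month arrays; these calls held in every alternative fit.

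Between 11 and 25 months no chaperone gene was called by limma, beside 0.150% of all probesets, 0.0588% higher and 0.0915% lower. At an unadjusted p below 0.05 there were 9 (13.4%, beside 10.4% of all and 13.7% of the 3825 strong probesets). Of the 9 genes, 7 lay higher at 25 months: Hspa5, Bag4, Dnajb9, Bag3, Dnajc9, Hspb7 and Hsf2. The one-way test with Tukey called 2 genes higher, Bag4 and Hspa5, and the fit with the range covariate called 2 higher, Dnajb9 and Hsf2. The median change of the 67 genes was 0.01, and 38 of them lay above 0. Of the partner lists, 0 of 21 ER genes and 0 of 17 HSP90 co-chaperones were called. At an unadjusted p below 0.05 there were 6 (28.6%) and 1 (5.88%), beside 10.4% of all and 13.7% of the 3825 strong probesets.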

How the data were processed

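The value table the authors deposited holds a linear intensity per probeset and array. It was made with Expression Console 1.2.1 and RMA, per the submitters' processing notes, which also name the mm8 build, and with GeneSpring GX 14.9, per the labels' design text; the filter that left 15300 probesets is not given in the sources used here. RMA removes background and is meant to equalise array distributions, so a change is relative to the other probesets of an array. In the deposited values the distributions were not equal, as the signal range ran from 2.03 to 2.45 over the arrays.

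The log2 of these values was fitted with limma 3.58.1 in R 4.3.3, with 1 mean per age over all 18 arrays, and p-values were adjusted by Benjamini-Hochberg over all 15300 probesets in each comparison, with a threshold of 0.05. A moderated F test covered the 3 ages. The fit was tested on simulated data. Changes are log2, older minus younger, with their SE, and folds are their antilogs. Tables were made with Python 3.11.15, numpy 2.4.6 and pandas 2.3.3. Gene symbols came from the platform annotation, updated through Entrez identifiers to RefSeq, where all 67 genes matched.

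Genes given with lowest, median and highest values are, per comparison, up to 10 called genes a direction by size, in each role the gene of highest mean and that of smallest F test p, and set heat-inducible genes with Cryab and Bag3; of the partner lists, up to 2 called genes a direction by adjusted p. Other genes were named for their role after their values were seen. Members and lists were chosen with earlier results of these data known. The labels call the samples biological replicates; whether animals shared a litter or cage is not stated. Hsp90ab1, Hspe1, Hsf1, Hspa1b and Dnajc3 had no probeset under a single symbol and were not analysed here. Alternatives were array weights, quantile normalization, median centring, only the 2 ages compared, a replicate block, the array signal range as covariate, a one-way test with Tukey, a threshold of 0.01, a variance trend with robust estimation, the weaker probeset of a gene, and removal of dim probesets, of single arrays and of the 3 arrays of narrowest signal range.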

Additional observations from a re-analysis of the deposited data

Results flagged for a closer look

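Of 102 groups of 6 arrays (34 named genes at 3 ages), 8 held an array whose gap to its nearest neighbour was large for the range of its group; chance alone flags about 1 group in 20. Hspb8 was low on replicate 1 of 11 months (11.25, next array 11.59) and on replicate 6 of 25 months (11.49, next 11.71), and Dnajb6 was low on replicate 5 of 25 months (8.52, next 8.76). Dnajc11 was high on replicate 1 of 2 months (8.20, next 8.04) and low on replicate 1 of 25 months (7.72, next 7.84), where Dnajc10 was high (8.70, next 8.53). On replicate 5 of 11 months Hsp90b1 (9.75, next 9.55) and Hspa8 (12.01, next 11.85) were high.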

How the results depend on the processing

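Counts below are of the 67 genes. At 11 against 2 months the 12 called higher became 6 after quantile normalization, 6 without the 3 arrays of narrowest signal range, 6 at a threshold of 0.01 and 1 with the signal range as a covariate. The 5 called lower became 11 after quantile normalization, 1 at 0.01, and 3 with only the 2 ages compared, with the covariate, with Tukey's test and without the 3 arrays. At 25 against 11 months, 0 called higher became 2 with the covariate and 2 with Tukey's test. At 25 against 2 months the 5 called lower became 9 after quantile normalization, 9 with the covariate and 1 at 0.01, and the 13 called higher ranged from 9 at 0.01 to 19 with array weights. The F test called 13 in place of 20 without the 3 arrays and 10 at 0.01; it was not run with only 2 ages. Leaving out 1 array in turn gave 7 to 15 higher and 3 to 6 lower at 11 against 2 months, 0 to 0 higher and 0 to 0 lower at 25 against 11 months, 12 to 17 higher and 4 to 7 lower at 25 against 2 months, and 15 to 23 by the F test.

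With the replicate number as a block, 12 were called higher and 5 lower at 11 against 2 months, 0 and 0 at 25 against 11 months, 14 and 5 at 25 against 2 months, and 20 by the F test. Correlations between same-numbered arrays ran from -0.325 to 0.42. Arrays of different numbers were not compared in this way, so whether same-numbered arrays share more than a number was not tested.

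Of 32 calls of named genes, 12 were ended by no alternative, 12 were ended by the covariate, 15 by the threshold of 0.01 and 8 by leaving out 1 array or another; no call changed direction. The causes of these shifts were not tested. Weak probesets limit what can be seen, and 54 of the 67 genes lay above the median of all probesets.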
